A study of Rattus norvegicus with 36 samples.

Results

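The comparison of day 12 (D12) with day 0 (D0) of one differentiation and dedifferentiation cycle of iAM-1 cells is described here, using 8 of the 36 RNA libraries of the study, 4 from each day. The libraries were taken by day label, and day 12 was picked because mitosis genes were known to be back at the D0 level. iAM-1 is a conditionally immortalized line of neonatal Wistar rat atrial myocytes, so every library comes from 1 cell line. The D12 cells had gone through differentiation without doxycycline, which ended at day 9 (D9), and were then in the dedifferentiation phase with 100 ng/ml doxycycline. The D0 cells were proliferating with 100 ng/ml doxycycline and had not yet started to differentiate. Both groups are the same line with the same constructs and the same labelled doxycycline dose. Poly(A) RNA of cultured cells was sequenced as bulk samples, and the 4 D9 libraries are set beside the comparison where they help to place a value. Separate cultures for the libraries of 1 day are not stated in the labels, and the tests reflect the spread among these libraries alone, which may be technical.

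An immortalized cardiomyocyte line of this kind proliferates while a doxycycline-controlled oncogene, SV40 large T antigen, is expressed, and withdraws from the cell cycle when the drug is removed. Large T antigen is known to bind the retinoblastoma protein family, which releases E2F-driven transcription, and to bind p53. Atrial myocytes are marked by atrial myosin isoforms and by natriuretic peptide. Cardiac troponins, calcium-cycling proteins of the sarcoplasmic reticulum and dense mitochondria are shared with other cardiac muscle cells.

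The D12 and D0 libraries held 29.7 to 86.2 reads in listed genes, in units of 1000000 reads. Levels are given as deposited, in the unit the authors call CPM. Each value is the reads of a gene times 1 constant per library, and the columns do not sum to 1000000. Each fold change is the D12 mean minus the D0 mean of log2(CPM + 0.5), with its standard error (SE), from a limma fit across 11908 rat genes. The added 0.5 sets much of the fold of a gene that is near 0 on 1 of the days, so such a fold depends on this choice. For several of the genes it moves most the range over the settings tried is given. A gene counts as changed at a Benjamini-Hochberg adjusted p below 0.05. The D12 libraries differed more among themselves than the D0 libraries did. The median over genes of the standard deviation of log2 values was 0.248 among D12 libraries, 0.0823 among D0 libraries and 0.129 among D9 libraries. In D12, 295 of 11783 genes differed more than 4-fold between the highest and the lowest library, against 2 genes in D0. Values of each D12 library are therefore given for many of the named genes, while others are mostly given by their fold change alone. In bulk RNA, fewer cells of a type and less RNA per cell cannot be told apart.

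Across all genes 4528 of 11908 (38.0%) changed, of which 2329 rose (19.6%) and 2199 fell (18.5%) in D12 relative to D0. Changes of at least 2-fold were found for 1130 genes (9.49%), 450 that rose (3.78%) and 680 that fell (5.71%). The D12 libraries all lay above the D0 libraries for 2547 genes (21.4%) and all below for 2333 (19.6%). Among the calls 51.4% were increases. The shares of 19.6% and 18.5% are the ones to set beside the counts of each gene list below. With the TPM table in place of CPM the split was 1430 higher and 3239 lower, 30.6% increases, and the median log2 fold change of all tested genes was -0.12 in place of 0.03.

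**Figure D1:**
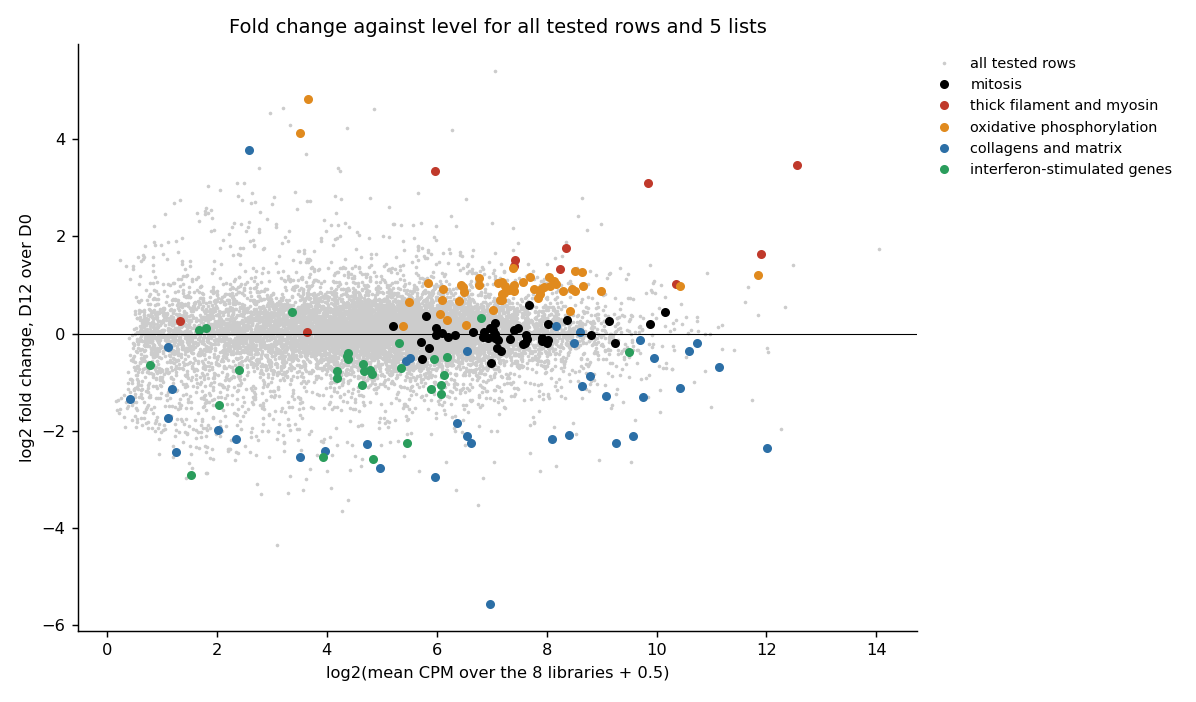
Log2 fold change (D12 over D0, vertical axis) against log2 of the mean CPM over the 8 libraries plus 0.5 (horizontal axis) for every tested row in grey, with the members of 5 gene lists in colour. Mitosis genes lie along 0, genes of the thick filament and of oxidative phosphorylation lie mostly above it, and matrix and interferon-stimulated genes mostly below it.

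Genes of mitosis were close to the D0 level in D12. Day 12 was picked for this return, so the values here describe that choice and are not a separate finding. Of 43 tested members of the mitosis list, 3 rose, 3 fell and 37 did not pass the test, and the median log2 fold change was -0.04, beside 0.03 for all genes. The 95% interval of the fold change lay within 2-fold in either direction for 43 of the 43, beside 76.2% of all tested genes. Summed over the list, the D12 libraries held between 8392 and 10315 CPM, the D0 libraries between 8625 and 9297 CPM, and the D9 libraries between 212 and 221 CPM.

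Top2a, the topoisomerase that untangles chromosomes before division, had 1122, 869, 1087 and 952 CPM in D12 libraries 1 to 4, against 837, 903, 846 and 924 CPM in D0 libraries 1 to 4. The groups overlapped, and the log2 fold change was 0.19 with a 95% interval of -0.06 to 0.44. Top2a was called higher only with array weights. Mki67, whose protein coats mitotic chromosomes, had 1338, 1297, 1391 and 1237 CPM in D12 against 933, 1046, 878 and 1013 CPM in D0. All D12 libraries were above all D0 libraries, a log2 fold change of 0.45 ± 0.10 (SE, adjusted p = 0.00855). Kif23, a kinesin of the cytokinetic midzone, rose by 0.58 ± 0.10 and is the list member that rose most.

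Ccnb1, the B-type cyclin of mitotic entry, had 138, 106, 152 and 115 CPM in D12 against 160, 154, 167 and 163 CPM in D0. Its log2 fold change was -0.35 ± 0.11 (adjusted p = 0.0400), a call that was lost without any single D0 library and without D12 library 2 or 4, where the adjusted p reached 0.102, and with all 36 libraries in the fit. Espl1, the protease separase that cleaves cohesin, fell by 0.60 on the log2 scale (SE 0.09), and the kinetochore scaffold Knl1 fell by 0.52 (SE 0.09). The counts of calls in this list depended on the scaling and on single libraries. There were 9 higher and 8 lower with array weights, 2 higher and 14 lower with the TPM table, 3 higher and 6 lower with DESeq2, 3 higher and 5 lower with quantile normalization, 3 higher and 7 lower without D12 library 1, 3 higher and 5 lower without D12 library 3, and 5 higher and 2 lower without D12 library 2 or without library 4. None of these settings gave a member a fold change of 2 or more.

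Mitotic genes are known to share promoter elements, the CCAAT box bound by NF-Y and the cell cycle homology region (CHR) bound by the DREAM complex, so the bases before the start of Top2a, whose groups overlapped, and of Ccnb1, whose call depended on the setting, are shown, from RefSeq on GRCr8. The 250 bases upstream of each start are printed 5′ to 3′ on the strand of the gene, with CCAAT (or its complement ATTGG) and the CHR sequence TTTGAA (or its complement TTCAAA) in capitals. Top2a lies on the minus strand at chr10:84473094-84473343, and Ccnb1 on the minus strand at chr2:33655226-33655475.
Top2a: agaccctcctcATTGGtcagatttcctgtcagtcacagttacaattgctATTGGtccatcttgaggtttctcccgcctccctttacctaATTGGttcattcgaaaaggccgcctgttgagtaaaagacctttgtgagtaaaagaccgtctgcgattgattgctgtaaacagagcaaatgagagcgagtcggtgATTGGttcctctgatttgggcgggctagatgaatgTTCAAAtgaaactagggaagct
Ccnb1: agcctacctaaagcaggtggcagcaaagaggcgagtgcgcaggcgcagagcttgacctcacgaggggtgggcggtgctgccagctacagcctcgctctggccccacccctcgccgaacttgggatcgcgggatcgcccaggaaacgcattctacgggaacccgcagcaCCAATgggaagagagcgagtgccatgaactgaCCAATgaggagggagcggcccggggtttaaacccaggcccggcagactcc
The Top2a window held 4 CCAAT boxes and 1 CHR sequence, and the Ccnb1 window 2 CCAAT boxes. Among 37 mitosis genes with 1 promoter entry, 28 windows (75.7%) held CCAAT and 19 (51.4%) held TTTGAA, on either strand. Among all 24206 promoters of the same length the shares were 34.4% and 16.1%, and among the 8069 of tested genes they were 36.1% and 10.1%. A match describes these letters and not a bound site.

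DNA replication genes were likewise close to the D0 level. Of 49 tested members 8 rose, 6 fell and 35 did not pass, with a median log2 fold change of 0.03. Of all tested genes 19.6% rose and 18.5% fell. The interval lay within 2-fold for 48 of 49. Pold3, a subunit of DNA polymerase delta, rose by 0.48 ± 0.08, and the flap endonuclease Fen1 rose by 0.45 ± 0.07. Pcna, the sliding clamp, had 505, 426, 386 and 398 CPM in D12 against 321, 321, 340 and 333 CPM in D0. All D12 libraries were higher, although the call was lost in the TPM table. Mcm2, a subunit of the replicative helicase, had 277, 277, 230 and 217 CPM in D12 and 271, 257, 265 and 254 CPM in D0, with an interval of -0.29 to 0.15 around its log2 fold change of -0.07. Mcm2 was called lower only with array weights. The fork protection gene Timeless fell by 0.63 (SE 0.09). Rpa3, the small subunit of replication protein A, had a fold change of -0.62 whose call was lost on leaving out D0 library 1, 3 or 4 or D12 library 3 or 4 (adjusted p up to 0.0825), and with the replicate block. The list had 5 increases without D0 library 1 or 3, and 2 increases and 13 decreases in the TPM table.

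Among the regulators of the step from G1 to S phase, 5 of 24 rose, 4 fell and 15 did not pass. These counts are near the share of all genes that rose (19.6%) and fell (18.5%). Ccne1, the E-type cyclin that drives S-phase entry, had 52.3, 50.5, 27.6 and 35.2 CPM in D12 against 18.7, 15.1, 18.0 and 18.1 CPM in D0, a log2 fold change of 1.18 ± 0.20 (adjusted p = 0.00179). Cdkn1a, the p53-induced inhibitor p21, had 149, 171, 214 and 205 CPM in D12 against 477, 442, 462 and 450 CPM in D0. The fold change was -1.32 ± 0.12 on the log2 scale (adjusted p = 6.83e-05), and D9 libraries had 437 to 521 CPM. Cdkn2a, the locus of p16 and Arf, had 54.2, 73.5, 50.9 and 56.2 CPM in D12 against 128, 112, 127 and 111 CPM in D0, and fell by 1.03 (SE 0.12). Cdkn2c, the inhibitor p18, had a log2 fold change of 0.52 that lost its call without D12 library 2 or any single D0 library and in the TPM table. Leaving out 1 D0 library, whichever it was, left 3 increases in this list.

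Rows of the integrated construct were read on both days, with 1 D12 library unlike the others. The T-antigen row had 3830, 1962, 2432 and 1637 CPM in D12 libraries 1 to 4, against 2732, 3021, 2973 and 3098 CPM in D0, while D9 libraries had 27.6 to 33.9 CPM. D12 library 1 was above every D0 library and the other 3 were below every D0 library. The log2 fold change was -0.34 with an interval of -0.89 to 0.22 (adjusted p = 0.317). Without D12 library 1 the row was called lower, with an adjusted p of 0.0135, and it was also called lower with array weights. The other construct rows showed the same order in D12 library 1. TetR-KRAB, the doxycycline-responsive repressor, had 929, 456, 520 and 340 CPM in D12 against 664, 722, 693 and 717 CPM in D0. It too was called lower without D12 library 1, at an adjusted p of 0.00412, with array weights and with all 36 libraries in the fit.

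**Figure D2:**
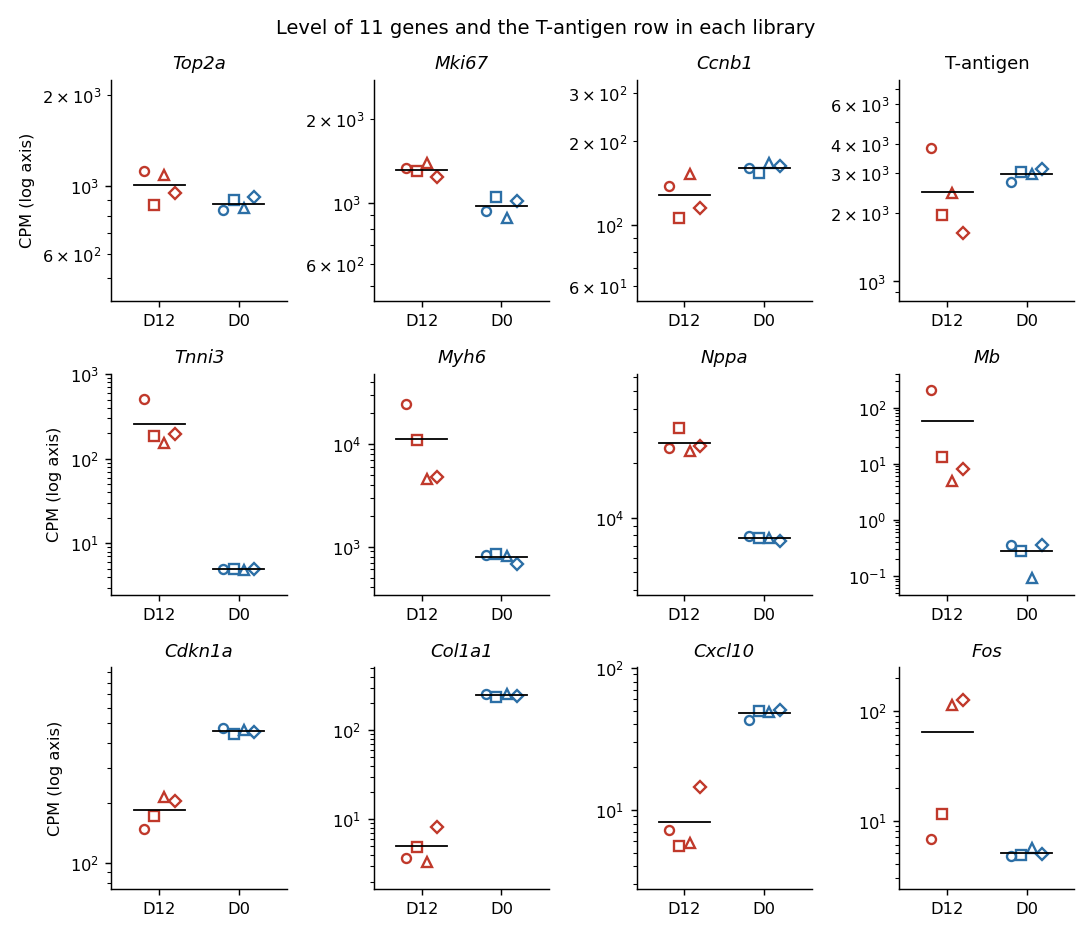
Level in CPM (log axis) of 11 genes and the T-antigen row in the 4 D12 libraries (red, left) and the 4 D0 libraries (blue, right). Circle, square, triangle and diamond are libraries 1 to 4, and the line is the mean of the group. Top2a overlaps between days, Tnni3, Myh6, Nppa and Mb lie higher in every D12 library, and Cdkn1a, Col1a1 and Cxcl10 lie lower in every D12 library.

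The contractile apparatus remained above the D0 level in the same libraries. In the list of thick filament and myosin genes 9 of 11 tested members rose and 2 did not pass, with a median log2 fold change of 1.52. Myh6, the atrial and adult rodent myosin heavy chain, had 24449, 11017, 4599 and 4750 CPM in D12 against 826, 843, 814 and 674 CPM in D0. Every D12 library was higher, library 1 most of all, and the log2 fold change was 3.48 ± 0.49 (adjusted p = 0.000681). D9 libraries held 36551 to 39778 CPM, above all D12 libraries. Myh7, the slow myosin heavy chain, had 269, 104, 45.7 and 48.5 CPM in D12 against 8.59, 9.70, 7.69 and 7.35 CPM in D0, a rise of 3.35 ± 0.49. Its reads could be shared with the near-identical Myh6, so its level is uncertain. Myl7, the atrial regulatory light chain, had 2786, 1898, 1010 and 992 CPM in D12 against 182, 176, 187 and 166 CPM in D0, a rise of 3.09 ± 0.31.

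Tnni3, the adult cardiac inhibitory troponin, had the highest fold change of the named genes at the 0.5 added here. With 0.1 added, or with the count tools, genes near 0 at D0 such as Kcng2, Cox8b and Murc were higher. Tnni3 stood at 508, 184, 155 and 194 CPM in D12 against 4.92, 4.94, 4.89 and 4.96 CPM in D0. All D12 libraries were far above D0, and 3 of them lay below the D9 range of 217 to 340 CPM. The log2 fold change over D0 was 5.41 ± 0.32 (adjusted p = 9.67e-06), while that over D9 was -0.09 with an interval of -0.84 to 0.66.
The 250 bases before its start, on the plus strand at chr1:78342321-78342570 of GRCr8, are shown because the gene leads the comparison. Capitals mark AGATAA, a sequence read by GATA factors, searched on both strands and found here on the opposite one.
Tnni3: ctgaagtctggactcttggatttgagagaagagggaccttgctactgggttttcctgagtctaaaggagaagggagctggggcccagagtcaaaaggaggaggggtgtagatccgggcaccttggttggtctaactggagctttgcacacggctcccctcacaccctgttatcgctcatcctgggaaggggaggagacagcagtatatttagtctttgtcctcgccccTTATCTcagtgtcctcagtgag
That sequence occurs 22 bases before the start. The GATA sequence was held by 10% of all promoters of this length and by 5.19% of those of tested genes. Of the thick filament, thin filament and Z-disc genes that rose, 4 of 23 (17.4%) held it. Whatever their change, it was held by 3 of 10 thick filament, 1 of 8 thin filament and 1 of 17 Z-disc genes with 1 promoter entry.

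Thin filament genes moved both ways. Of 12 tested, 7 rose, 4 fell and 1 did not pass. Tnnc1, the cardiac calcium-binding troponin, had 872, 786, 515 and 608 CPM in D12 against 162, 147, 153 and 155 CPM in D0, a rise of 2.14 ± 0.16. Tnnt2, the cardiac tropomyosin-binding troponin, had 4623, 4601, 2833 and 3288 CPM in D12 against 2486, 2522, 2429 and 2085 CPM in D0. All D12 libraries were higher, but the call (adjusted p = 0.0268) was lost without D12 library 2 or any D0 library, at an adjusted p of up to 0.0879, and with quantile normalization, the TPM table or the replicate block. The genes that fell were Tpm2, Tpm3, Tpm4 and Acta1. Tpm4, a cytoskeletal tropomyosin, had 190, 312, 409 and 373 CPM in D12 against 841, 894, 855 and 823 CPM in D0, and fell by 1.47 (SE 0.21). Acta1, the skeletal actin, had 63.1, 26.5, 19.1 and 31.6 CPM in D12 against 120, 125, 129 and 119 CPM in D0, and fell by 1.94 (SE 0.30). Actins share long identical stretches, so its reads could be split with the cardiac and smooth muscle actins.

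At the Z-disc, where thin filaments are anchored, 19 of 26 genes rose, 2 fell and 5 did not pass, with a median of 0.99. Actn2, the sarcomeric alpha-actinin, had 541, 875, 560 and 582 CPM in D12 against 117, 122, 115 and 114 CPM in D0, a rise of 2.42 ± 0.15. Tcap, the titin cap, had 20.7, 17.0, 4.50 and 6.06 CPM in D12 against 0.831, 0.305, 0.516 and 0.398 CPM in D0, a rise of 3.40 ± 0.45 (2.29 to 4.57 over the settings). Cmya5, known as myospryn, had 1061, 761, 558 and 420 CPM in D12 against 95.5, 101, 84.5 and 100 CPM in D0, a rise of 2.79 ± 0.25. The LIM protein gene Pdlim3 fell by 0.76 (SE 0.15). Pdlim7 had a fold change of -0.65, and its call was lost without D0 library 1 or 3, which left 1 decrease in the list.
Among other muscle genes, Murc, the muscle cavin of caveolae, had 14.4, 4.08, 25.3 and 25.3 CPM in D12 against 0.149, 0.0527, 0.0911 and 0.0628 CPM in D0. It rose by 4.63 ± 0.49, and by 2.98 to 7.65 over the settings, since D0 is near 0. Txlnb, the muscle taxilin, rose by 4.30 ± 0.52 (2.85 to 6.37 over the settings), and the adaptor gene Sh3kbp1 rose by 4.19 ± 0.48.

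Genes that mark atrial muscle, among them Myl7 and Sln of other lists, were also partly above the D0 level. Of 20 tested genes 10 rose, 1 fell and 9 did not pass. Nppa, atrial natriuretic peptide, had 24215, 31407, 23491 and 25119 CPM in D12 against 7979, 7740, 7727 and 7488 CPM in D0. The D12 libraries lay close together here, and the log2 fold change was 1.74 ± 0.25 (adjusted p = 0.00083), a call that was lost under quantile normalization, where the log2 fold change was 0.18. Corin, the protease that cleaves the natriuretic peptide precursor, had 45.1, 57.1, 27.0 and 26.6 CPM in D12 against 1.38, 1.57, 1.00 and 2.24 CPM in D0, a rise of 4.22 ± 0.28. Nr2f2, the atrial-identity factor COUP-TFII, fell by 0.48 (SE 0.10). Receptors for these peptides differed in direction. Npr1, the guanylyl cyclase receptor, had 3.60, 3.27, 2.74 and 3.07 CPM in D12 against 18.6, 18.7, 20.3 and 17.7 CPM in D0 and fell by 2.40 (SE 0.11), whereas the clearance receptor Npr3 rose by 1.72 ± 0.28.

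Of 19 tested ion channel genes 6 rose, 1 fell and 12 did not pass. Kcng2, a modifying potassium channel subunit, had 25.9, 18.2, 7.64 and 6.33 CPM in D12 against 0.0639, 0.116, 0.0304 and 0.0209 CPM in D0, a rise of 4.53 ± 0.40 that ran from 2.83 to 7.79 over the settings. Kcnj11, the pore of the ATP-sensitive potassium channel, had 33.7, 26.5, 15.2 and 13.7 CPM in D12 against 2.88, 3.15, 3.19 and 1.78 CPM in D0, a rise of 2.74 ± 0.30. The cation channel gene Trpm4 fell by 1.10 (SE 0.23). Kcnj3, a subunit of the acetylcholine-gated atrial potassium channel, had 115, 93.9, 49.6 and 50.6 CPM in D12 and 50.6, 57.1, 54.3 and 55.5 CPM in D0, with an interval of -0.18 to 0.99. D12 libraries 1 and 2 were above all D0 libraries and the other pair was not. Kcnj3 was called higher only with all 36 libraries in the fit. Without D12 library 4 the list had 10 increases, and without D12 library 1 it had 2 decreases.

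Calcium handling genes rose in 14 of 26 cases, fell in 5 and did not pass in 7. Atp2a2, the calcium pump of the sarcoplasmic reticulum, had 12366, 9924, 6008 and 5424 CPM in D12 against 3003, 3054, 3033 and 2903 CPM in D0, a rise of 1.41 ± 0.28. Ryr2, the calcium release channel, had 720, 531, 358 and 287 CPM in D12 against 146, 160, 135 and 149 CPM in D0, a rise of 1.59 ± 0.25. Sln, sarcolipin, the atrial pump inhibitor, rose by 2.10 ± 0.23, and Trdn, triadin, rose by 1.87 ± 0.25. Itpr2, an inositol trisphosphate receptor, fell by 1.47 (SE 0.18), and the lumenal chaperone Calr fell by 1.15 (SE 0.17). Without D0 library 3 there were 9 increases, and 2 decreases were left without any single D0 library or without D12 library 3 or 4, and 3 without D12 library 2. In the intercalated disc list 5 of 15 rose, 2 fell and 8 did not pass. Gja1, the main ventricular and general gap junction protein connexin 43, had 472, 477, 535 and 498 CPM in D12 against 132, 142, 146 and 149 CPM in D0, a rise of 1.80 ± 0.08. Dsc2, a desmosomal cadherin, fell by 1.24 (SE 0.14).

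The cardiac transcription factors were in part above the D0 level. Of 28 tested, 12 rose, 1 fell and 15 did not pass, with a median of 0.39. Nkx2-5, the early cardiac homeobox factor, had 116, 128, 136 and 119 CPM in D12 against 73.5, 64.0, 70.7 and 58.4 CPM in D0, a rise of 0.90 ± 0.09. Smyd1, a muscle methyltransferase, rose by 2.22 ± 0.26. For Tbx5 the interval ran from 0.06 to 0.65 (adjusted p = 0.0585). The gene was called higher without D12 library 1, with DESeq2, with all 36 libraries in the fit and with array weights. For Gata4 it ran from -0.23 to 0.62, with 296, 408, 596 and 495 CPM in D12 and 384, 383, 386 and 366 CPM in D0. D12 library 1 was the only D12 library below D0. Gata4 was called higher without that library and with array weights. Without D12 library 2 or 3 the list had 2 decreases.

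Mitochondrial genes rose as a broad group. For oxidative phosphorylation 45 of 49 tested genes rose and 4 did not pass, with a median log2 fold change of 0.93. The median of the list was 1.35, 1.06, 0.65 and 0.71 above D0 in D12 libraries 1 to 4, so each D12 library was above D0. Cox8b, a muscle isoform of a cytochrome oxidase subunit, had 61.9, 15.8, 7.07 and 11.7 CPM in D12 against 0.0639, 0.0948, 0.213 and 0.105 CPM in D0, a rise of 4.83 ± 0.55 that ran from 3.19 to 7.73 over the settings. Cox6a2, another muscle isoform, had 61.2, 14.8, 2.64 and 7.94 CPM in D12 against 0.149, 0.221, 0.456 and 0.105 CPM in D0, a rise of 4.12 ± 0.75 (2.74 to 6.59 over the settings). For the citric acid cycle and its regulators 21 of 23 rose and 2 did not pass. Sdha, the flavoprotein of complex II, had 801, 604, 452 and 435 CPM in D12 against 229, 222, 235 and 234 CPM in D0, a rise of 1.27 ± 0.18. Ppargc1a, the coactivator of mitochondrial biogenesis and a member of the transcription factor list, had 49.3, 29.6, 9.45 and 8.38 CPM in D12 against 3.86, 5.36, 4.83 and 4.29 CPM in D0. It rose by 1.92 ± 0.51, with an adjusted p of 0.0163 that reached 0.0471 on leaving out single libraries.

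Fatty acid oxidation genes were less uniform. Of 30 tested, 10 rose, 3 fell and 17 did not pass. The list median was 1.08, 0.70, 0.00 and 0.12 above D0 in D12 libraries 1 to 4, so libraries 3 and 4 stood close to the D0 level. Mb, myoglobin, the oxygen store of muscle, had 202, 13.2, 4.83 and 7.94 CPM in D12 against 0.362, 0.284, 0.0911 and 0.356 CPM in D0. It rose by 4.62 ± 0.97 (3.24 to 7.62 over the settings) and differed more between D12 libraries than any other named gene that rose. Cd36, the fatty acid transporter, had 14.0, 2.25, 1.74 and 2.13 CPM in D12 against 0.192, 0.242, 0.273 and 0.105 CPM in D0. The log2 fold change of Cd36 was 2.48 (1.2 to 4.6 over the settings). Lpl, lipoprotein lipase, fell by 0.81 (SE 0.12). Without D12 library 1 or 2 this list had 5 decreases. In glycolysis 7 of 24 rose, 4 fell and 13 did not pass. The glucose transporter Slc2a1 fell by 1.18 (SE 0.13) and the regulatory kinase Pfkfb3 rose by 1.06 ± 0.13. That list had 3 or 4 increases without a D0 library, and 7 decreases without D12 library 1.

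**Figure D3:**
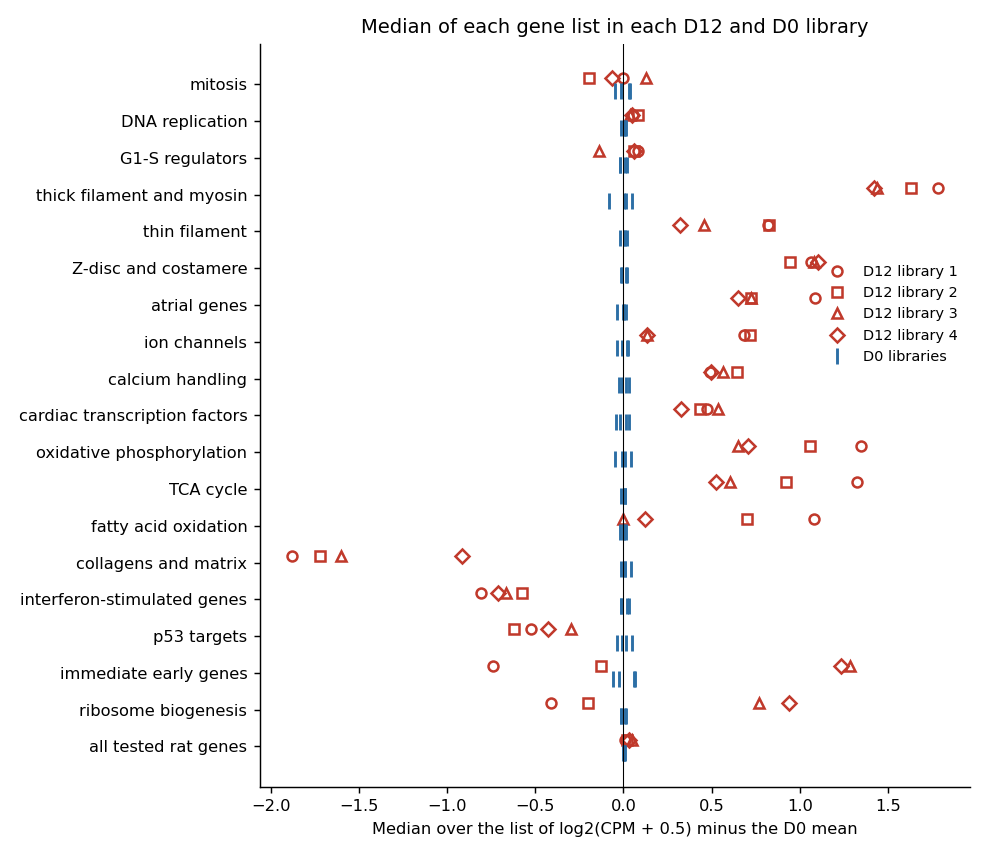
Median over each gene list of log2(CPM + 0.5) minus the D0 mean of the gene (horizontal axis), for the 4 D12 libraries (red symbols) and the 4 D0 libraries (blue ticks). Mitosis and DNA replication lie near 0 in every D12 library, thick filament and oxidative phosphorylation genes lie above 0, and matrix, interferon-stimulated and p53 target genes lie below 0, while immediate early and ribosome biogenesis genes are low in D12 library 1 and high in libraries 3 and 4.

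Genes of the extracellular matrix were far below the D0 level. Of 38 tested, 26 fell, 1 rose and 11 did not pass, with a median log2 fold change of -1.32. Col1a1, the alpha-1 chain of type I collagen, had 3.66, 4.89, 3.31 and 8.16 CPM in D12 against 252, 234, 254 and 244 CPM in D0. D9 libraries had 4.20 to 6.67 CPM. The fold change of -5.56 ± 0.23 on the log2 scale was the lowest of the named genes at the 0.5 added here (adjusted p = 1.68e-06), and the interval against D9 spanned 0. Tnc, the matricellular tenascin C, had 6.66, 11.0, 19.1 and 24.5 CPM in D12 against 105, 115, 104 and 111 CPM in D0, and fell by 2.95 (SE 0.34). Col16a1, a fibril-associated collagen, fell by 3.16 (SE 0.32), and Tnxb, tenascin X, fell by 3.20 (SE 0.25). Lama2, the laminin chain of the muscle basement membrane, was the list member that rose. It had 19.9, 10.2, 6.21 and 6.45 CPM in D12 against 0.320, 0.453, 0.152 and 0.0628 CPM in D0, a rise of 3.78 ± 0.35 (2.27 to 5.36 over the settings). Mrc2, a collagen uptake receptor, had 7.98, 22.3, 17.6 and 24.6 CPM in D12 against 207, 193, 208 and 182 CPM in D0, and Ddr2, a collagen receptor kinase, had 2.62, 2.56, 2.17 and 1.85 CPM in D12 against 20.0, 22.4, 21.5 and 22.0 CPM in D0.

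The remaining genes with the lowest fold changes had varied roles. Ptprv, a phosphatase gene, had 3.08, 2.10, 1.79 and 2.57 CPM in D12 against 35.3, 33.9, 35.1 and 37.2 CPM in D0, and fell by 3.66 (SE 0.15). Myo7a, an unconventional myosin, fell by 3.42, the actin-capping gene Capg by 3.30, the neuregulin receptor gene Erbb3 by 3.28, and the sodium pump subunit gene Atp1b2 by 3.22. LOC100911486 had a log2 fold change of -4.35 (-5.68 to -2.95 over the settings) and is given by its locus name only, since such loci can share reads with a close copy. For these genes all D12 libraries lay below all D0 libraries, as the rule for naming them required.

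Interferon-stimulated genes fell in 24 of 30 cases, rose in 1 and did not pass in 5, with a median of -0.74. The D12 libraries stood at -0.81, -0.57, -0.67 and -0.71 in the median of the list, close to each other. Cxcl10, a chemokine, had 7.24, 5.54, 5.83 and 14.4 CPM in D12 against 43.1, 49.8, 49.3 and 50.5 CPM in D0, a fold change of -2.58 ± 0.26 (adjusted p = 0.000125). Oasl, an antiviral oligoadenylate synthetase-like gene, had 0.202, 0.228, 0.214 and 0.0830 CPM in D12 against 4.50, 4.98, 4.65 and 4.25 CPM in D0, a log2 fold change of -2.90 ± 0.14 that ran from -4.67 to -1.59 over the settings. Cmpk2, a mitochondrial nucleotide kinase, had 11.2, 11.1, 11.9 and 11.3 CPM in D12 against 6.75, 8.33, 9.51 and 8.56 CPM in D0, a rise of 0.44 ± 0.12 that lost its call in the TPM table.
The interferon-stimulated response element is read by STAT and IRF factors, and the upstream bases of Cxcl10, on the plus strand at chr14:15988816-15989065 of GRCr8, are shown as an example, with its core in capitals, a pair of GAAA runs set 2 bases apart, searched on both strands.
Cxcl10: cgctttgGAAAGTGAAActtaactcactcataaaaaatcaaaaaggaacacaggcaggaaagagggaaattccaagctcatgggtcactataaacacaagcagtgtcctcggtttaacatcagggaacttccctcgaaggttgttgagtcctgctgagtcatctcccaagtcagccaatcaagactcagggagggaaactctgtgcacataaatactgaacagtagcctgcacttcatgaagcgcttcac
The core was held, on either strand, by 16 of 25 listed genes with 1 promoter entry (64%). It was held by 3.32% of all promoters of this length and by 2.4% of those of tested genes.

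Among p53 targets 13 of 25 fell, 3 rose and 9 did not pass, with a median of -0.46. Beside Cdkn1a, Eda2r, a TNF receptor superfamily member, had 9.95, 12.9, 8.83 and 7.11 CPM in D12 against 35.6, 36.6, 35.7 and 40.0 CPM in D0. It fell by 1.91 (SE 0.16) and was also lower than at D9, where it had 28.5 to 45.6 CPM. Gdf15, a stress cytokine, fell by 1.78 (SE 0.19). The repair gene Xpc rose by 0.62 ± 0.11. Tigar, a regulator of glycolysis, had a log2 fold change of 0.52 whose call was lost without D12 library 1 or 4 or any D0 library, in the TPM table and with the replicate block. The increases numbered 1 in each of those settings. The T-antigen level of each library is given above, and its part in these levels was not tested.

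In the unfolded protein and ATF4 list 9 of 31 fell, 5 rose and 17 did not pass, beside 18.5% of all genes that fell and 19.6% that rose. Pdia4, a disulphide isomerase of the endoplasmic reticulum, had 106, 136, 141 and 259 CPM in D12 against 356, 354, 354 and 366 CPM in D0. It fell by 1.24 (SE 0.23), whereas the stress transcription factor genes Cebpb and Ddit3 rose by 1.29 ± 0.20 and 1.11 ± 0.14. Without D12 library 1 this list had 8 increases. Lysosomal genes fell in 11 of 27 cases, rose in 1 and did not pass in 15. Their list median was 0.13, -0.14, -0.47 and -0.29 relative to D0 in D12 libraries 1 to 4, so the libraries differed in direction. Glb1, the lysosomal beta-galactosidase, had 61.5, 68.1, 38.9 and 45.4 CPM in D12 against 110, 118, 123 and 118 CPM in D0, and fell by 1.16 (SE 0.16), while Tfeb, the transcription factor of lysosomal genes, rose by 0.81 ± 0.14. Without D12 library 3 or 4 this list had 2 increases. In sterol synthesis 8 of 23 fell, 2 rose and 13 did not pass. The median of this list was 0.16, -0.06, -0.17 and -0.34 relative to D0 in D12 libraries 1 to 4. The reductase gene Tm7sf2 fell by 0.91 (SE 0.18). That list had 3 decreases without D0 library 1, 2 or 4 or D12 library 4, 4 without D0 library 3, and 1 increase without D0 library 1 or 2.

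Of 35 growth factor, TGF-beta and YAP target genes 8 rose, 6 fell and 21 did not pass, near the share of all genes that rose (19.6%) and fell (18.5%). Vegfa, the vascular growth factor, had 316, 200, 178 and 157 CPM in D12 against 81.6, 81.5, 75.1 and 63.7 CPM in D0, a rise of 1.44 ± 0.20. Ptn, pleiotrophin, had 53.5, 54.8, 28.3 and 30.1 CPM in D12 against 133, 137, 137 and 140 CPM in D0, and fell by 1.77 (SE 0.22). Igf1 had 0.894, 1.70, 11.5 and 14.4 CPM in D12 against 21.5, 20.8, 22.3 and 24.3 CPM in D0. All D12 libraries were lower, but its call was lost without D12 library 2 or any D0 library, and with edgeR and DESeq2. This list had 5 increases and 3 decreases without any single D0 library, and 3 decreases without D12 library 2. Of 13 neurohumoral receptor genes 7 rose, 4 fell and 2 did not pass. Adra1d, an alpha-1 adrenergic receptor, had 14.4, 7.22, 2.74 and 3.84 CPM in D12 against 0.234, 0.200, 0.577 and 0.314 CPM in D0, a rise of 2.95 ± 0.43 (1.79 to 4.47 over the settings). The purinergic channel gene P2rx4 fell by 1.58 (SE 0.10).

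The immediate early genes, the first transcripts made after a growth or stress signal, differed between the D12 libraries. Of 26 tested, 5 rose, near the share of all genes (19.6%), 2 fell, beside 18.5% of all genes, and 19 did not pass. The median of the list was -0.74, -0.13, 1.28 and 1.23 relative to D0 in D12 libraries 1 to 4. Fos had 6.83, 11.4, 114 and 125 CPM in D12 against 4.75, 4.83, 5.62 and 4.92 CPM in D0. D12 libraries 3 and 4 were the highest, and the call (log2 fold change 2.60 ± 0.88, adjusted p = 0.0435) was lost without D12 library 3 or 4 or any D0 library. Egr1 had 16.7, 66.4, 232 and 229 CPM in D12 against 16.6, 15.3, 16.6 and 15.4 CPM in D0, and its call was lost in the same settings. That of Fos was also lost in the TPM table. Klf2, a Krüppel-like transcription factor, had 3.14, 9.14, 17.0 and 18.5 CPM in D12 against 52.5, 50.5, 53.3 and 44.6 CPM in D0, and fell by 2.28 (SE 0.46). The list had 19 increases with array weights, 12 with DESeq2, 10 with all 36 libraries in the fit and 9 with edgeR. It had 9 without D12 library 1, 3 without D12 library 3 or 4 and 2 without any single D0 library.

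Ribosome biogenesis genes followed a similar order of libraries. Their list median was -0.41, -0.20, 0.77 and 0.94 relative to D0 in D12 libraries 1 to 4, and 2 of 28 rose while 26 did not pass. Nop56, a nucleolar RNA-guided methylation factor, had 132, 141, 281 and 347 CPM in D12 against 98.5, 104, 101 and 103 CPM in D0. Its call and that of Dkc1 were lost without D12 library 3 or any single D0 library, and that of Dkc1 also without D12 library 2 or 4, with the replicate block, edgeR and under all 3 other scalings (median-of-ratios, quantile and TPM). The count of increases depended strongly on the setting, with 25 under array weights and 9 with all 36 libraries in the fit. On the recovered reads there was 1 increase with edgeR and 2 with DESeq2. The list had 5 increases without D12 library 1, and 1 without D12 library 2 or 4.

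**Figure D4:**
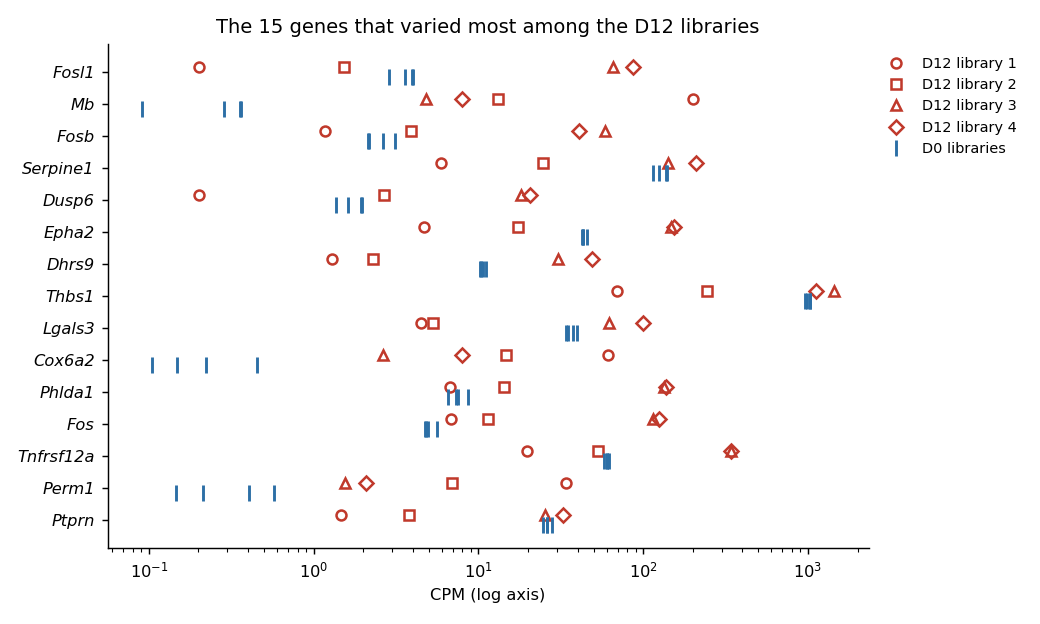
CPM (log axis) of the 15 genes with the widest range among D12 libraries and a mean of at least 5 CPM, chosen after the values were seen, with D12 libraries as red symbols and D0 libraries as blue ticks. Fosl1, Fosb, Dusp6, Epha2, Phlda1, Fos and Tnfrsf12a are highest in D12 libraries 3 and 4, while Mb, Cox6a2 and Perm1 are highest in D12 library 1.

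The genes that varied most among D12 libraries, chosen after their values were seen and given with no test, fell into these patterns. Fosl1, an AP-1 subunit, had 0.202, 1.54, 65.7 and 87.2 CPM in D12 against 3.94, 2.85, 3.61 and 4.00 CPM in D0. D12 libraries 1 and 2 were below all D0 libraries and libraries 3 and 4 above them. Dusp6, a phosphatase of ERK, showed the same split for library 1 against libraries 3 and 4, with 0.202, 2.66, 18.1 and 20.5 CPM in D12 and 1.94, 1.36, 1.97 and 1.61 CPM in D0. Thbs1, thrombospondin 1, had 69.8, 243, 1440 and 1124 CPM in D12 and 965, 1022, 982 and 1032 CPM in D0. Perm1, a muscle regulator of mitochondrial genes, ran the other way, with 34.0, 6.91, 1.55 and 2.07 CPM in D12 against 0.405, 0.579, 0.213 and 0.147 CPM in D0.

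Each D12 library was placed between D0 and D9 gene by gene, with 0 for the D0 mean and 1 for the D9 mean, over genes at least 2-fold apart between D0 and D9. Over 1299 genes higher at D9, the median position was 0.721, 0.609, 0.311 and 0.310 for D12 libraries 1 to 4. Over 1770 genes lower at D9 it was 0.351, 0.310, 0.223 and 0.182. All D12 medians thus lay between both days and nearer to D0, except those of libraries 1 and 2 over the genes higher at D9. The genes lower at D9 include those of mitosis, for whose return day 12 was picked. The positions over that set therefore in part describe this choice. With genes at least 4-fold apart the second set gave 0.074, 0.098, 0.078 and 0.074.

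**Figure D5:**
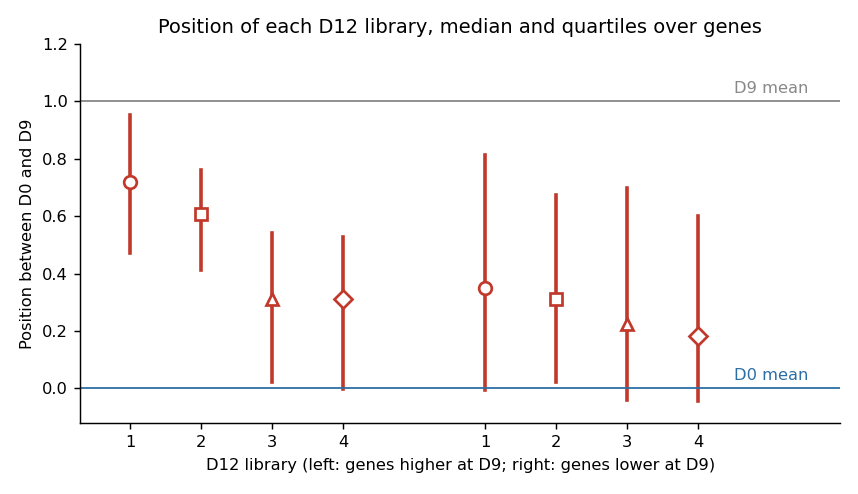
Position of each D12 library between the D0 mean (0) and the D9 mean (1) on the vertical axis, as the median over genes (symbol) and the range between the quartiles (bar), for genes at least 2-fold higher at D9 (left) and at least 2-fold lower at D9 (right). Libraries 1 and 2 lie at 0.721 and 0.609 on the left, and the other medians lie between 0.182 and 0.351. The genes on the right include those of mitosis, for whose return day 12 was picked.

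Against D9, 5475 of 11726 genes (46.7%) changed, 2756 of them higher (23.5%) and 2719 lower (23.2%). At least 2-fold, 1147 were higher (9.78%) and 686 lower (5.85%). With the TPM table the split was 3880 higher and 1632 lower. This comparison shares the D12 libraries with the comparison against D0. Beyond both days, 22 genes were at least 2-fold above D0 and D9 and 53 at least 2-fold below both, called in each comparison. Klf5, a zinc finger factor of proliferating cells, had 18.8, 23.6, 42.0 and 35.7 CPM in D12 against 5.90, 5.44, 5.56 and 5.88 CPM in D0 and 2.46 to 4.87 CPM in D9. Hspa4l, a heat shock cochaperone, had 55.8, 41.8, 56.4 and 52.8 CPM in D12 against 19.2, 19.1, 20.6 and 20.8 CPM in D0 and 10.6 to 13.0 CPM in D9. Tiam2, a Rac exchange factor, had 14.0, 10.4, 49.3 and 49.9 CPM in D12 against 3.43, 4.16, 3.49 and 5.09 CPM in D0. Dnaaf3, an assembly factor of ciliary dynein arms, and Ccdc88c, a regulator of Wnt signalling, were the other leading genes, with log2 fold changes over D0 of 2.25 ± 0.24 and 2.03 ± 0.14. Below both days, Ephx1, the microsomal epoxide hydrolase, had 57.6, 71.3, 29.9 and 32.8 CPM in D12 against 173, 161, 161 and 181 CPM in D0 and 310 to 336 CPM in D9. Ptprv and Eda2r, given above, and the extracellular matrix protein genes Olfml2a and Svep1, with fold changes against D0 of -2.21 ± 0.29 and -2.05 ± 0.25, were the others that led this set.

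Markers of other cell types were checked, since the cultures could hold more than myocytes. Of 14 fibroblast markers 8 are listed and 7 were tested, of which 5 fell and 2 did not pass. Their summed level was 95.1 to 264 CPM in D12 libraries and 612 to 653 CPM in D0 libraries. Epicardial markers were 131 to 249 CPM in D12 and 302 to 313 CPM in D0, with 5 of 7 lower and 2 not passing. Upk3b, a mesothelial marker, had 12.3, 14.8, 12.8 and 16.7 CPM in D12 against 55.8, 52.1, 58.1 and 51.5 CPM in D0. These lists moved with the matrix genes, and the matrix list holds Col1a1, Col3a1 and Fbln1 of the fibroblast list. The markers Dcn, Lum, Tcf21, Fap, Cd34 and Dpt are not analysed here, and the table lists genes with a read in every library. The sums are given as measured, their part in the matrix results was not tested. Smooth muscle markers summed to 8875.5 to 14053 CPM in D12 and 14351 to 15142 CPM in D0, with 4 of 12 lower and 8 not passing. Acta2, the smooth muscle actin, had an interval of -0.84 to 0.11, and Vim, vimentin, one of -0.85 to 0.43. Acta2 was called lower only with quantile normalization. Without D12 library 1 there was 1 increase in the smooth muscle list.
The other lists had few listed genes. Endothelial markers summed to 36.3 to 89.9 CPM in D12 and 20.4 to 26.0 CPM in D0, and of 3 tested genes 1 rose, 1 fell and 1 did not pass. Vwf, von Willebrand factor, had 0.836, 0.734, 0.310 and 0.913 CPM in D12 against 1.43, 1.44, 1.43 and 1.49 CPM in D0, and fell by 0.73 (SE 0.20), a call lost under quantile normalization. Kdr, a VEGF receptor that makes up most of the sum, had 44.0, 85.6, 45.3 and 30.8 CPM in D12 against 15.0, 19.9, 20.4 and 19.7 CPM in D0. Macrophage and blood markers summed to 1.77 to 2.66 CPM in D12 and 5.10 to 6.39 CPM in D0 over 2 listed genes, with Cd14 lower, and with both lower without D12 library 4. Of 4 tested Schwann cell and neuron markers 1 rose and 2 fell, of which Prph, a neuronal intermediate filament gene, fell by 2.82 (SE 0.45). Of 5 tested skeletal muscle markers 2 fell. Of 4 tested ventricular genes 2 rose, Myh7 and Fhl2. The reads of Myh7 could be shared with Myh6, as said above, so its rise is uncertain.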

How the data were processed

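Poly(A) RNA of iAM-1 cells was sequenced as directional libraries, per the labels' protocols. The authors deposited a table they call CPM, whose signal values are whole reads times 1 step per library but do not sum to 1000000 (column sums 868992 to 1136460), and a TPM table, which the authors also deposited and which serves here as an alternative. The submitters' processing notes name Rnor_6.0 and edgeR 3.26.8. Which aligner and read counter were used is not given in the sources used here. As for the unit, the design had taken the values to be plain CPM, and the log-scale test planned for CPM was kept.

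The main test was limma 3.58.1 (lmFit, eBayes with trend) in R 4.3.3 on log2(CPM + 0.5), for rows with at least 1 CPM in at least 4 of the 8 libraries, with Benjamini-Hochberg adjustment over all rows and a threshold of 0.05. One spread per gene was shared by both days although D12 varied more. Every library gave whole reads (100% of values of up to 20 reads within 0.1 read of a whole number). On these reads edgeR 4.0.16 called 4512 genes, 2367 higher and 2145 lower, and DESeq2 1.42.0 was run as a further alternative. The fitting steps were also run on simulated counts with known fold changes. Those counts were drawn independently for each library, so they cannot give the error rate for these D12 libraries. Of 12943 rat genes in the table, 11908 passed the filter.

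Genes were named by rule: the 10 highest and 10 lowest fold changes among called genes whose groups do not overlap, with a mean of at least 5 CPM; up to 2 called members at either end of each list; fixed anchor genes and construct rows; and the 5 genes furthest above and below both D0 and D9. The members and lists were chosen with earlier results of these data known. List summaries are counts and medians. Promoters are from RefSeq tables of GRCr8. Python 3.11.15 made summaries and figures.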

Additional observations from a re-analysis of the deposited data

Results flagged for a closer look

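In 11 of 274 groups of 4 values looked at, 1 library lay further from its nearest neighbour than the 95% critical value of Dixon's test allows. Chance gives about 1 in 20 such groups. At D12, Cd36 was highest in library 1 at 14.0 CPM, Actn2 was highest in library 2 at 875 CPM, and Oasl was lowest in library 4 at 0.083 CPM. At D0, library 4 was lowest for Col16a1 at 16.1 CPM, for Myh6 at 674 CPM and for Gata4 at 366 CPM, and highest for Pdia4 at 366 CPM and for Vwf at 1.49 CPM. Library 1 of D0 was lowest for Cxcl10 at 43.1 CPM and for Kdr at 15.0 CPM, and library 3 of D0 was lowest for Mvk at 12.4 CPM. The causes were not tested.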

How the results depend on the processing

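Of 125 named genes called in D12 against D0, 105 kept the call in every alternative and 15 lost it when 1 library was left out. For D12 against D0 the TPM table gave 1430 higher genes and array weights 3643, against 2329. For D12 against D9 the TPM table gave 1632 lower genes against 2719, and array weights 4241 higher genes against 2756; quantile normalization gave 2183 higher and 3481 lower. Pkp4 in D12 against D9 turned to -0.23 under array weights. The positions over genes lower at D9 moved to 0.074, 0.098, 0.078 and 0.074 for D12 libraries 1 to 4 with genes at least 4-fold apart. The causes were not tested.

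Leaving out 1 library gave 1711 to 2650 higher and 1723 to 2409 lower genes for D12 against D0, and 2268 to 3234 higher and 2098 to 3224 lower for D12 against D9. Without D0 library 1, 2, 3 or 4, 3457, 3441, 3442 and 3548 genes were called for D12 against D0, beside 4528 in the main test. Without D12 library 1 there were 5059. A call lost without any single D0 library thus does not point to a particular D0 library. Counts in gene lists moved too. Array weights gave glycolysis 13 higher and 8 lower, growth factor genes 15 higher, unfolded protein genes 9 higher, G1-S regulators 9 lower, DNA replication 10 lower and intercalated disc genes 8 higher. The fit on all 36 libraries gave fatty acid oxidation 19 higher and 5 lower, glycolysis 13 higher, ion channels 12 higher, growth factor genes 10 lower and G1-S regulators 8 higher. DESeq2 gave ion channels 10, glycolysis 11 and G1-S regulators 8 higher. With all 36 libraries in the fit, 3326 genes were higher and 2881 lower than at D0.

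Libraries with the same number were treated as unpaired. The correlations of their deviations were 0.0019, 0.0175, -0.0009 and -0.0178 between D12 and D0. Those of libraries with different numbers ran from -0.0842 to 0.108. With the small spread among D0 libraries, these values cannot show that no pairing exists. A replicate block gave 1902 higher and 1904 lower genes for D12 against D0, and 2573 higher and 2453 lower for D12 against D9. With 4 libraries a day, and a wide spread at D12, a difference that missed the test is not shown to be absent.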
